A study of Pan troglodytes with 8 samples.

Results

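Regions of open chromatin nearest to the zinc finger (ZNF) genes of human chromosome 19 were examined in 4 cell populations of chimpanzee cerebral organoids. A region was taken when its human position lay on chromosome 19 and its closest gene was named ZNF with a number, with or without a final letter, at any distance. The rule took 320 of the 218080 regions of the table and 207 genes. Of these, 11 regions had no chimpanzee identifier and 0 counts in the 8 libraries, so that 309 regions of 201 genes were analysed. A count minimum set over the whole table left 293 regions for the tests. Regions are assigned to a gene by distance alone.

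Most genes of this family encode DNA-binding proteins with arrays of C2H2 zinc fingers, and many carry a KRAB domain at the other end. The KRAB domain binds TRIM28, which brings in SETDB1, a histone methyltransferase, and HP1 proteins, and so silences the bound DNA. Many of these proteins bind retrotransposons, and their genes lie in tandem clusters on human chromosome 19 that grew by gene duplication in primates.

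The assay was ATAC-seq on pools of sorted cells: a transposase enters open chromatin, cuts it and tags the ends for sequencing. The chimpanzee induced pluripotent stem cell line SandraA, seeded at 9000 cells per well, was grown into organoids up to week 8, give or take 3 days. All groups share this 1 line and this culture, and none carries a stated edit or treatment. Cells were sorted into 4 populations with 2 libraries each: radial glia, either apical (aRG) or basal (bRG), intermediate progenitors called basal (bIP), and neurons labelled BCL11B+ (N). Apical radial glia are stem cells at the ventricular surface, basal radial glia are their counterparts away from it, and intermediate progenitors divide to give neurons. Whether libraries 1 and 2 of a population stem from different cultures is not stated in the labels, and the p-values therefore reflect the variation among these libraries alone, which may be technical.

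The libraries held between 24913928 and 34845193 counts. Loci of 9 of 9 radial glia markers fell from aRG to N, where 28.0% of all loci tested fell, and 5 of 7 neuron markers rose, where 32.8% did (edgeR quasi-likelihood test, Benjamini-Hochberg adjusted p under 0.05). At the BCL11B locus itself, which encodes the protein in the label of N, the summed counts, scaled to a common library size (CPM), were 65.9 and 58.2 in aRG, 64.1 and 56.2 in bRG, 77.9 and 74.4 in bIP, and 54.9 and 47.1 in N. The BCL11B locus was not called between aRG and N, rose from bRG to bIP (edgeR adjusted p = 0.0471) and fell by 0.58 on the log2 scale from bIP to N (edgeR adjusted p = 0.00496). TBR1, also a neuron marker, rose from aRG to N and likewise fell by 0.58 from bIP to N (edgeR adjusted p = 0.00407). Of the 7 neuron markers, these 2 fell from bIP to N, 3 rose (NEUROD2, MAPT and SYT1) and 2 were not called, where 40.1% of all loci were called. No region or locus of any gene was called between bRG and aRG by edgeR. In bulk data, fewer cells with an open region and less opening per cell cannot be told apart.

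Of the 309 regions, 188 overlapped the start of a gene (distance 0), 54 lay up to 10 kb away, 54 lay over 10 and up to 50 kb away, and 13 lay farther. Among the 320 rows taken, 60.9% were at a gene start, against 7.83% of all rows of the table. Of the 201 genes, 148 had 1 region, 38 had 2, and ZNF536 had the most, with 25. The ZNF start regions had a median of 21.1 CPM over the libraries, beside 19.4 CPM for all start regions, and their middle 50% spanned 15.7 to 28.1 CPM, beside 6.09 to 32.1 CPM. A consensus peak of every population overlapped 178 of the 188 ZNF start regions, or 94.7% (95% Wilson interval 90.5 to 97.1), and 74.6% of all start regions. Away from gene starts the share with a peak in every population was 28.1% of the 121 ZNF regions (Wilson interval 20.9 to 36.7) and 12.7% of all such regions. The intervals cover counting error only, and there was 1 peak list per population. A pair of regions assigned to ZNF43 lay on chimpanzee chromosome 17, at chr17:8376503-8378197 and chr17:8379466-8380122 (panTro6), although their human positions were near 21.9 Mb of chromosome 19; the others lay on chimpanzee chromosome 19.

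Fold changes between populations spanned a narrower range at the starts of the ZNF genes than at gene starts in general. Summed over the 188 start regions, the level was 4254 and 4829 CPM in aRG, 4143 and 4322 in bRG, 3913 and 4260 in bIP, and 4227 and 4795 in N. The 4 populations overlapped, and library 2 was above library 1 in each of them. These sums were scaled by the trimmed mean of M-values over all regions. On that scale, among libraries of the same number, the sum was lower in bIP than in aRG and higher in N than in bIP. The labels do not say what libraries of the same number share. With library totals alone, all 309 ZNF regions summed to 4530 and 5296 CPM in aRG, 4821 and 5163 in bIP, and 4983 and 5576 in N. There bIP was above aRG for library 1 and below it for library 2, while N stayed above bIP for both numbers. Over all start regions of the table, the sums were 405900 and 400800 CPM in aRG and 328400 and 332700 CPM in N, with no overlap between these populations. From aRG to N, the middle 50% of log2 fold changes spanned 0.32 log2 units at ZNF starts and 0.68 at all starts. The corresponding widths were 0.20 and 0.38 from aRG to bIP, and 0.21 and 0.45 from bIP to N. The narrower range was not particular to these genes: in the same order of comparisons, the widths were 0.36, 0.20 and 0.27 at starts of ZNF genes on other chromosomes, and 0.42, 0.25 and 0.29 at starts of other genes on human chromosome 19. Under the other scalings, filters and left-out libraries that were tried, the width in N against aRG ran from 0.29 to 0.34 at ZNF starts and from 0.61 to 0.79 at all starts.

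**Figure D1:**
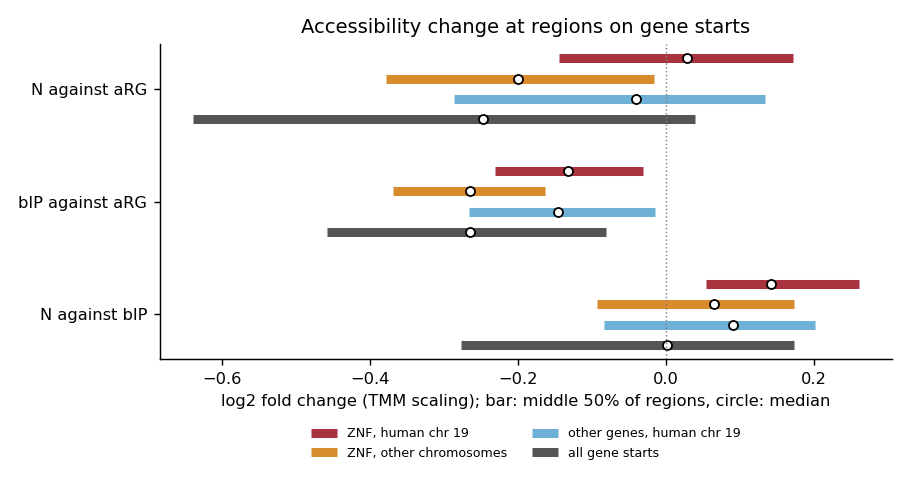
Median (circle) and middle 50% (bar) of log2 fold changes at start regions, for ZNF genes of human chromosome 19 (182 regions), ZNF genes of other chromosomes (182), other genes of chromosome 19 (814) and all genes (16146). In N against aRG the median is 0.03 for the first set and -0.25 over all starts.

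The ZNF starts also sat higher on the scale of fold changes than gene starts did in general. In N against aRG the median log2 fold change was 0.03 at ZNF starts and -0.25 over all starts, a difference of 0.28 that ran from 0.18 to 0.36 over the alternatives. In bIP against aRG the medians were -0.13 and -0.27, and in N against bIP they were 0.14 and 0.00. Starts of ZNF genes on other chromosomes had a median of -0.20 in N against aRG, and starts of other genes on human chromosome 19 had a median of -0.04. In the same order, the medians were -0.26 and -0.15 in bIP against aRG, and 0.07 and 0.09 in N against bIP. Starts of other genes on human chromosome 19 thus also sat above all starts in each comparison. These are descriptions of the sets, and no test was made between them.

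How many ZNF starts were called, and in which direction, depended on the scaling. With scaling by the trimmed mean of M-values (TMM) over all regions, 24 of 182 ZNF starts were called from aRG to N, or 13.2%, against 52.6% of all start regions (edgeR quasi-likelihood test, Benjamini-Hochberg adjusted p under 0.05). Of these, 10 rose and 14 fell, where 11.1% of all starts rose and 41.5% fell. Scaling on start regions alone gave 84 calls, of which 80 rose and 4 fell, or 46.2% beside 48.0% of all starts. Loess scaling, which also levels the change at each abundance, gave 146 calls, of which 143 rose. That was 80.2% of the ZNF starts beside 60.5% of all starts, so the order of the shares was reversed under loess. Library totals gave 37 calls (27 rose), RLE size factors 32 calls (2 rose) and DESeq2 15 calls (1 rose), with 47.1%, 60.4% and 45.9% of all starts called. The 10 and 14 calls are therefore given relative to the TMM scale, on which all start regions had a median of -0.25. In bIP against aRG, 10 ZNF starts fell and 0 rose, 5.49% of 182 against 42.3% of all starts called and 35.2% that fell. In N against bIP, 11 rose and 2 fell, 7.14% against 22.9% of all starts called, 8.07% that rose and 14.8% that fell. The share of all starts that rose from aRG to bIP was 7.05%. These splits depended on the scaling as well. From aRG to bIP, 6 rose and 2 fell with TMM from start regions and 16 rose and 2 fell with loess, whereas 0 rose and 13 fell with RLE. From bIP to N, 3 rose and 4 fell with RLE and with library totals, 1 rose and 1 fell with DESeq2, and 92 rose and 1 fell with loess. With the library number as a replicate block, 28 fell and 0 rose from aRG to bIP, 15.4% against 53.1% of all starts, and 34 rose and 3 fell from bIP to N, 20.3% against 31.5%. The blocked count from aRG to N was 38, of which 18 rose. In N against aRG the ZNF share was below that of all starts in 16 of 17 settings, all but loess.

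**Figure D2:**
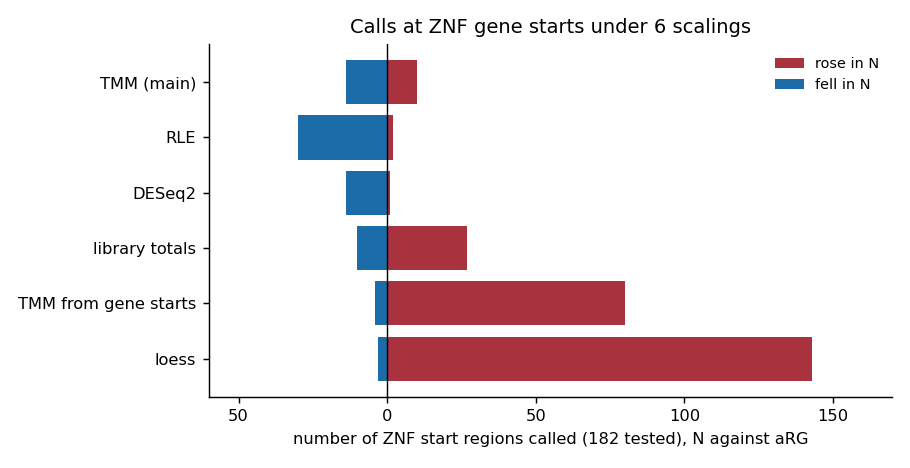
Number of ZNF start regions called in N against aRG, those that rose to the right and those that fell to the left, under 6 scalings. The split goes from 2 rose and 30 fell with RLE to 143 rose and 3 fell with loess.

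Restricting both sets to starts of 10 to 40 CPM left the contrast on the TMM scale in place, with 12.7% of 158 ZNF starts called in N against aRG, beside 48.5% of all starts at that level. At any level, 60 of 182 starts of ZNF genes on other chromosomes were called in N against aRG, or 33.0%, of which 58 fell. Of the starts of other genes on human chromosome 19, 259 of 814 were called, or 31.8%. Both shares also lay below the 52.6% of all starts.

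The largest change at a ZNF start was at ZNF788P, listed as a pseudogene by its symbol, at chr19:12659580-12660973 (panTro6). The region had 11.1 and 12.02 CPM in aRG, 9.95 and 9.20 in bRG, 4.42 and 5.86 in bIP, and 2.35 and 2.43 in N. Both neuron libraries lay below both bIP libraries, which lay below the libraries of either radial glia population. The log2 fold change from aRG to N was -2.27. The start of ZNF90 (chr19:20613159-20614849) fell from 17.4 and 18.8 CPM in aRG to 11.0 and 9.99 in N. The start of ZNF93, which encodes a KRAB protein known to silence LINE-1 elements, fell from 36.9 and 37.7 CPM in aRG to 24.96 and 25.04 in N (chr19:20431486-20433381). At the start of ZNF575 (chr19:41442636-41444623) the level was 72.9 and 77.0 CPM in aRG, 41.1 and 51.5 in bIP, and 44.9 and 48.4 in N. The ZNF90, ZNF93, ZNF575 and ZNF788P starts were also called down from aRG to bIP. For ZNF575 and ZNF788P this held in all 16 other settings that were run, in both comparisons. The bIP call was lost in 6 of 16 settings for ZNF90 and in 7 of 16 for ZNF93. The 6 were loess, library totals, TMM from start regions and the fits without aRG library 1, aRG library 2 or bIP library 1. DESeq2 was the other for ZNF93. The genes ZNF90 and ZNF93 have 1 region each. In the separate fit to sums per gene, neither was among the 3 ZNF loci that fell from aRG to bIP. With loess the falls of ZNF90 and ZNF93 from aRG to N were not called either. The start of ZNF233 had the largest rise among the starts, from 3.09 and 4.69 CPM in aRG to 7.53 and 8.74 in N, a log2 fold change of 1.06 that was not called without aRG library 1.

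Away from gene starts, the share of ZNF regions called was nearer to that of other regions at the same distance. From aRG to N, 29 of 52 tested regions up to 10 kb away were called, or 55.8%, against 67.0% of all regions at that distance. Between 10 and 50 kb, 31 of 46 were called, or 67.4% against 70.6%, and beyond 50 kb, 8 of 13, or 61.5% against 73.9%. Single genes supplied many of these regions, ZNF536 most of those beyond 50 kb. Without ZNF536 the counts were 24 of 47 (51.1%), 24 of 36 (66.7%) and 2 of 3, in order of distance. ZNF507, at which 10 regions rose and 1 fell, was kept in these counts. With the starts included, 92 of 293 ZNF regions were called from aRG to N (48 rose, 44 fell), or 31.4%, against 69.0% of all regions tested, where 37.2% rose and 31.7% fell. This split also depended on the scaling, with 38 that rose and 63 that fell under RLE, 66 and 34 under library totals, and 185 and 26 under loess, where 72.0% of ZNF regions were called against 68.7% of all regions. From aRG to bIP 50 were called (25 rose, 25 fell), against 47.2% of all regions, and from bIP to N 61 were called (36 rose, 25 fell), against 47.6%. With library totals the first of these was 27 that rose and 14 that fell, and with RLE the second was 24 and 28. From bRG, 102 were called to N and 37 to bIP, against 67.9% and 42.9%, and 91 differed between any of the 4 populations, against 73.5%. With the replicate block, 76 regions were called from aRG to bIP and 93 from bIP to N, against 53.6% and 55.2% of all regions.

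The region with the largest rise from aRG to N lay 11.4 kb from ZNF549, at chr19:55591060-55592198. It had 0.586 and 0.754 CPM in aRG, 1.23 and 1.22 in bRG, 8.27 and 6.20 in bIP, and 20.5 and 23.6 in N. The level was higher in bIP than in either kind of radial glia and higher again in N, with a log2 fold change from aRG to N of 5.03 ± 0.31 (SE; edgeR adjusted p = 1.18e-07). A peak was listed there in bIP and N and not in aRG. The start of ZNF549 itself had 17.8 and 19.3 CPM in aRG and 18.9 and 22.5 in N and was not called.

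Near ZNF599, 4.7 kb from its start (chr19:32733466-32734263), the level was 0.391 and 0.461 CPM in aRG, 0.352 and 0.509 in bRG, 0.979 and 0.881 in bIP, and 7.87 and 12.9 in N. Most of the gain at this region lay between bIP and N (log2 fold change 3.47, against 1.12 from aRG to bIP). A region 14.7 kb from ZNF227 (chr19:42142938-42143824) had 0.078 and 0.168 CPM in aRG, 0.290 and 0.077 in bIP, and 2.08 and 3.02 in N. It was called between bIP and N and not between aRG and bIP. A region 3.3 kb from ZNF233 (chr19:42212601-42213319) had 3 and 1 counts in aRG and 39 and 40 in N. A region 1.7 kb from ZNF304 (chr19:55426645-55427031) had 1 and 3 counts in aRG and 25 and 112 in N, so that library 2 held most of its counts in N. Its log2 fold change was 4.90 ± 0.88 (edgeR adjusted p = 0.000302). No population had a peak at the ZNF233 or ZNF304 region, and the ZNF599 and ZNF227 regions had a peak in N only.

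The largest fall was 1.7 kb from ZNF726, at chr19:23657227-23657647, where the level was 3.05 and 3.98 CPM in aRG, 3.20 and 3.97 in bRG, 0.580 and 1.26 in bIP, and 0.031 and 0.196 in N. In N this was 1 and 5 counts, and the log2 fold change from aRG was -5.00 ± 0.59 (edgeR adjusted p = 9.7e-06). At a region 0.9 kb from ZNF66 (chr19:21086082-21086645) the level was 7.03 and 5.28 CPM in aRG, 8.48 and 5.74 in bRG, 1.27 and 2.37 in bIP, and 0.217 and 0.509 in N. Both regions were high in the 4 radial glia libraries, lower in bIP and lowest in N. Regions near ZNF737 (chr19:20888669-20889238), ZNF43 (the second of the pair on chimpanzee chromosome 17) and ZNF563 (chr19:12909850-12910276) also fell, with log2 fold changes of -3.68, -3.56 and -2.85. Each of these 5 regions lay outside a gene start and was also called down from aRG to bIP. Peaks were listed in aRG and bRG at the ZNF66 and ZNF43 regions. The ZNF737 region had a peak in aRG only, the ZNF726 region in bRG only and the ZNF563 region in no population.

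**Figure D3:**
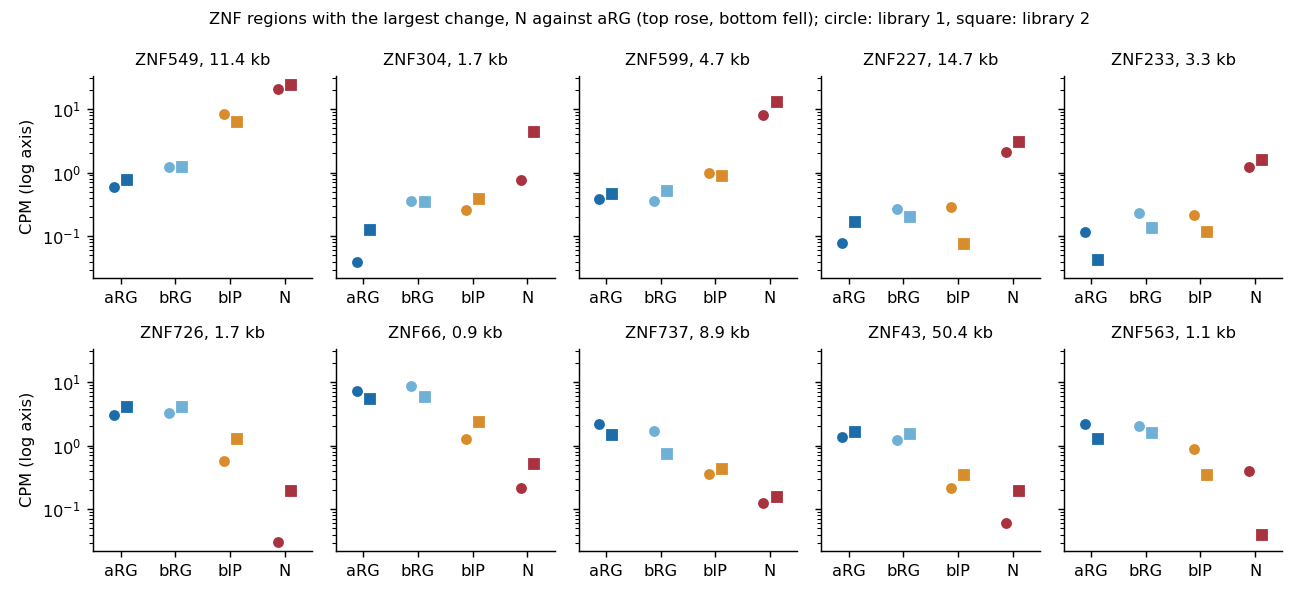
CPM on a log axis in each of the 8 libraries (circle library 1, square library 2) at the 5 ZNF regions that rose most (top) and the 5 that fell most (bottom) in N against aRG, with the distance to the gene. The regions were chosen by size of change among those whose aRG and N libraries do not overlap, so the separation of these populations is given by the choice.

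The gene with most regions was ZNF536, which encodes a zinc finger protein made in the brain that restrains neuronal differentiation. From aRG to N, 8 of its 25 regions rose and 10 fell, near the background of 37.2% and 31.7% of all regions. From bIP to N 2 rose and 12 fell, where 49624 of all 198227 regions rose and 44728 fell, or 47.6% in either direction. One region, at chr19:28226415-28227956, had 46.8 and 45.3 CPM in aRG, 39.5 and 38.5 in bRG, 22.0 and 25.5 in bIP, and 8.83 and 10.9 in N. Another, at chr19:28270040-28271109, went the other way, with 0.586 and 0.670 CPM in aRG, 3.19 and 2.76 in bIP, and 7.96 and 10.1 in N. Some were highest in bIP: the region at chr19:28267236-28269025 had 9.73 and 8.92 CPM in aRG, 18.7 and 19.8 in bIP, and 10.4 and 11.3 in N. Summed over the locus, the level was 172.6 and 163.2 CPM in aRG, 169.3 and 164.5 in bRG, 198.9 and 193.3 in bIP, and 134.4 and 115.2 in N. The locus sum fell by 0.43 ± 0.10 on the log2 scale from aRG to N (edgeR adjusted p = 0.00626) and by 0.65 ± 0.10 from bIP to N (edgeR adjusted p = 0.00162). With loess scaling the first of these was -0.12 and was not called. None of the regions of ZNF536 overlapped its start.

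At ZNF507, nearly all changes were rises, and they lay away from the start. The start region (chr19:30270284-30271756) had 11.4 and 14.7 CPM in aRG, 12.3 and 12.5 in bRG, 12 and 13.5 in bIP, and 10.8 and 14.5 in N. These ranges overlapped, and the start was not called. Of 13 tested regions, 10 rose and 1 fell from aRG to N, where 37.2% of all regions rose and 31.7% fell. From bIP to N 9 rose and 0 fell, where 49624 of all 198227 regions rose and 44728 fell, or 47.6% in either direction. The region 5.0 kb away, at chr19:30264851-30266081, had 1.21 and 2.10 CPM in aRG, 2.94 and 4.63 in bIP, and 8.58 and 21.5 in N. The locus sum was 18.6 and 25.8 CPM in aRG, 22.1 and 25.6 in bRG, 33.0 and 29.9 in bIP, and 49.0 and 71.8 in N, a log2 rise of 1.44 ± 0.21 from aRG to N (edgeR adjusted p = 0.0004). From bIP to N the rise was 0.94, and without bIP library 2 it was 0.81 and not called.

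**Figure D4:**
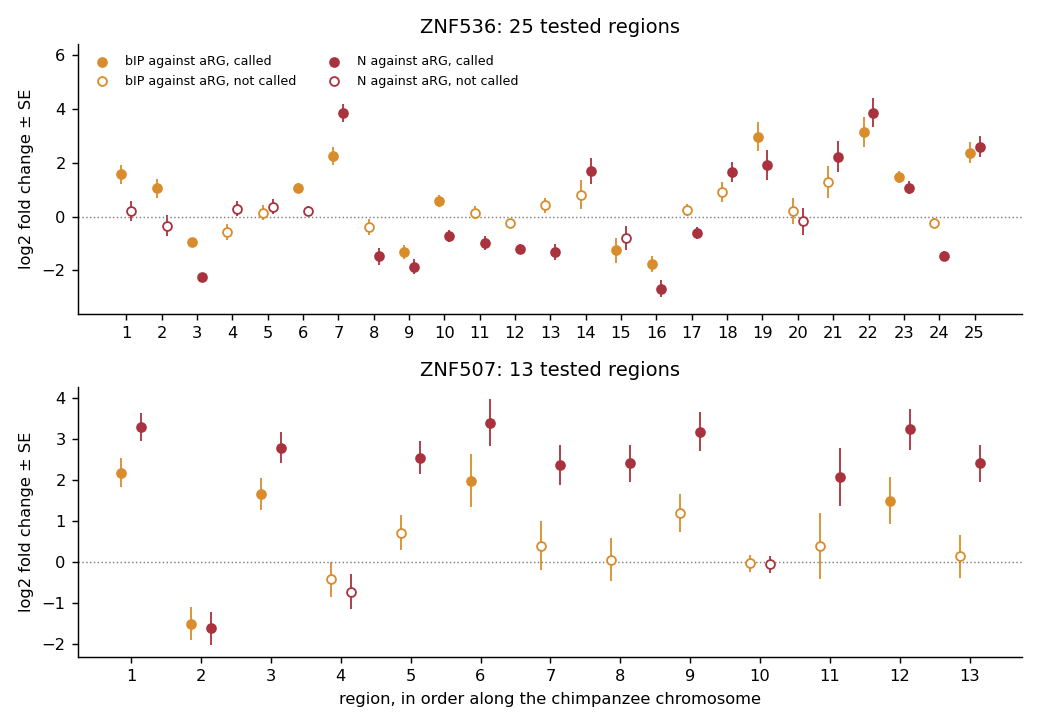
Log2 fold change ± SE for each tested region of ZNF536 (25) and ZNF507 (13), in order along the chimpanzee chromosome, for bIP against aRG and N against aRG. Filled points were called. At ZNF536 8 regions rose and 10 fell in N against aRG, and at ZNF507 10 rose and 1 fell.

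Counts summed per gene were scaled by TMM anew, so their splits and those of the start regions are not on 1 scale. The median log2 fold change from aRG to N was 0.17 at ZNF loci and 0.05 at all loci. From aRG to N, 45 of 192 ZNF loci were called (34 rose, 11 fell), or 23.4%, against 60.8% of all loci tested. Of all loci, 32.8% rose and 28.0% fell. The count ran from 35 to 49 over the other scalings and tools, and the share of all loci from 58.6% to 61.4%. Of the called loci, those that rose numbered 23 of 35 with DESeq2 and 42 of 49 with TMM from start regions. Without aRG library 1 the count was 17, and with the library number as a replicate block it was 78, or 40.6% against 67.7%. From aRG to bIP, 6 ZNF loci were called (3 rose, 3 fell), against 40.7% of all loci, and from bIP to N 12 were called (8 rose, 4 fell), against 40.1%. From bRG there were 47 to N and 7 to bIP, against 59.2% and 37.9%, and 31 differed between any populations, against 63.8%. With the replicate block there were 15 from aRG to bIP, 36 from bIP to N and 82 from bRG to N. There were also 15 from bRG to bIP and 63 between any populations. In all 18 other settings, the block among them, the share of ZNF loci called was below that of all loci in these pairs. For any difference it was below in all 16. Over the settings, the highest ZNF shares were 7.81%, 18.8%, 42.7%, 7.81% and 34.1%, in the order above. The highest shares of all loci were 49.6%, 50.0%, 66.8%, 46.5% and 72.4%.

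The ZNF568 locus had the largest rise. ZNF568 encodes a KRAB protein whose mouse counterpart silences a placental transcript of Igf2. Its summed level was 0.785 and 0.642 CPM in aRG, 0.589 and 1.04 in bRG, 4.59 and 4.56 in bIP, and 4.47 and 4.57 in N. The rise lay between aRG and bIP, at a log2 fold change of 2.67 ± 0.31 from aRG to bIP (edgeR adjusted p = 0.000303), and N was not called against bIP (-0.02 ± 0.26). The ZNF671 locus, at 8.11 and 9.52 CPM in aRG, 14.3 and 15.8 in bIP and 12.3 and 14.9 in N, rose from aRG to bIP by 0.77. It was not called without aRG library 1. At ZNF112, whose level was 48.8 and 51.9 CPM in aRG, 33.7 and 33.6 in bIP, and 43.2 and 52.9 in N, the bIP libraries were below all others. The fall from aRG to bIP, -0.58 ± 0.11 (edgeR adjusted p = 0.00343), lay at a region 9.6 kb from the start, which had 34.9 and 35.4 CPM in aRG and 15.3 and 14.6 in bIP. At the start of ZNF112 the log2 fold change from aRG to bIP was 0.13 when only start regions were summed.

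ZNF579 also changed away from its start. Its locus had 70.3 and 70.2 CPM in aRG, 66.6 and 71.3 in bIP, and 48.0 and 45.5 in N, a fall of -0.59 from aRG to N, with 3 regions that fell and 1 that rose. ZNF844 fell from bIP to N by 0.40 on the log2 scale (edgeR adjusted p = 0.0355), and this call was lost when any 1 of 7 libraries was left out.

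**Figure D5:**
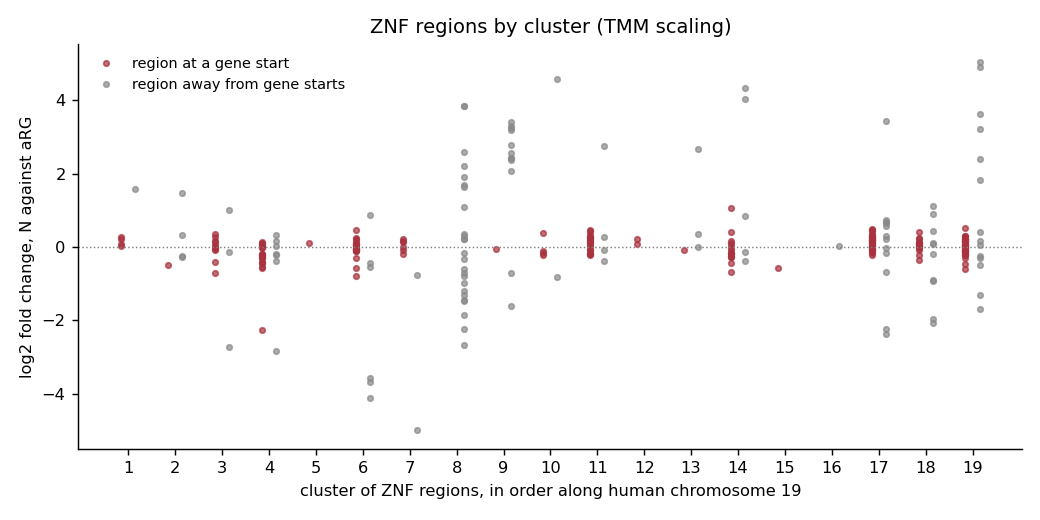
Log2 fold change in N against aRG for each tested ZNF region, by cluster in order along human chromosome 19; red points are at gene starts, grey points are elsewhere. Start regions lie between -2.27 and 1.06, and the points beyond this range are regions away from starts.

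Where neighbouring regions lay over 500 kb apart on human chromosome 19 they were split, which gave 19 clusters. The largest by regions lay between 57.19 and 58.48 Mb (ZNF264 to ZNF446), with 48 regions of 35 genes. Its summed level was 742 and 874 CPM in aRG, 687 and 784 in bIP, and 765 and 890 in N, with overlap between all 3 populations. The cluster between 51.57 and 53.56 Mb (ZNF175 to ZNF331) held 31 genes, and its start regions had a median log2 fold change of 0.16 from aRG to N, with 2 of 28 that rose and 0 that fell, beside 11.1% and 41.5% of all starts. The cluster between 11.50 and 12.61 Mb (ZNF653 to ZNF490) had a median of -0.24 at its start regions on the TMM scale, of which 0 of 19 rose and 6 fell. This is close to the median of -0.25 over all starts. ZNF536 and ZNF507 were each a cluster of 1 gene.

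Several genes of the family were named whatever their values. ZNF91, a KRAB gene known to silence SVA elements, had 20.4 and 21.6 CPM in aRG, 25.5 and 23.97 in bIP, and 24.6 and 27.1 in N and was not called. With the replicate block its rise from aRG to N was 0.30 and was called (edgeR adjusted p = 0.0342). ZNF274, whose protein marks the 3' ends of ZNF genes, had 33.9 and 35.6 CPM in aRG and 27.5 and 34.3 in N and was not called. ZNF675, ZNF765, ZNF296, ZNF787, ZNF428 and ZNF865 were not called in N against aRG, bIP against aRG or N against bIP either. ZNF43 had 50.2 and 57.4 CPM in aRG and 49.1 and 47.3 in N, and its locus was not called, whereas 2 of its 4 regions fell from aRG to N. ZNF558 had a single region, at its start, with 0.041 to 0.347 CPM over the 8 libraries, and was too low to test. ZNF473 and ZNF541 had no region of their own in the list. The 3 loci with the highest sums were ZNF524 with 99.3 CPM, ZNF414 with 119.1 CPM and ZNF536 with 163.9 CPM. Per kb of region they stood at 52.0, 44.1 and 5.94 CPM, beside a median of 13.2 CPM per kb over the 201 loci. The lowest were ZNF257, ZNF729 and ZNF98, which had 0 counts in at least 1 library each.

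Between bRG and aRG, 0 of 293 ZNF regions were called by edgeR, against 0.00% of all regions, and 3 had an unadjusted p under 0.05. DESeq2 also called 0. On data simulated for N against aRG with few changed regions, 2 of 67 regions changed 2-fold were called, so the absence of calls does not exclude such changes. At the locus level the lowest unadjusted p values were those of ZNF77 (0.191), ZNF114 (0.207) and ZNF781 (0.240), all with an adjusted p of 1 by edgeR.

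The proteins through which KRAB zinc fingers act were examined at their own loci, from a list of 25 genes of which 21 could be tested. From aRG to N 2 rose and 9 fell, where 32.8% of all loci rose and 28.0% fell, 60.8% in all. Their median log2 fold change was -0.24 beside 0.05 for all loci. These values are from the fit to sums per gene, whose TMM scaling was computed apart from that of the regions. TRIM28, which binds the KRAB domain, had 55.9 and 60.5 CPM in aRG and 56.1 and 62.4 in N and was not called. SETDB1 was not called, with 26.5 and 31.3 CPM in aRG and 29.0 and 37.1 in N. ATF7IP, which stabilises SETDB1, rose from 12.9 and 8.27 CPM in aRG to 37.1 and 44.6 in N, a log2 fold change of 1.95 ± 0.28 (edgeR adjusted p = 0.000388). MORC2, which acts with the HUSH silencing complex, fell from 59.7 and 68.7 CPM in aRG to 31.9 and 34.7 in N (log2 fold change -0.95 ± 0.12; edgeR adjusted p = 0.000174), and had 39.5 and 44.6 CPM in bIP. TASOR, a core subunit of HUSH, fell from 74.96 and 72.9 CPM in aRG to 38.2 and 43.2 in N (log2 fold change -0.86 ± 0.11; edgeR adjusted p = 0.000192). The largest fall of the list was at DNMT3A, a DNA methyltransferase, from 59.9 and 47.8 CPM to 21.4 and 19.7 (log2 fold change -1.39 ± 0.13; edgeR adjusted p = 3.96e-05). CHD3 also rose, and CHD4, HDAC1, HDAC2, SUV39H2 and SMARCAD1 also fell. The HP1 gene CBX1 fell by 0.34 on the log2 scale (edgeR adjusted p = 0.0199), while CBX5, also an HP1 gene, and MPHOSPH8, another HUSH subunit, were not called. CBX3 had no locus that could be tested.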

How the data were processed

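The authors deposited raw read counts per region, and the submitters' processing notes list bcl2fastq 2.20.0 and MACS2 with the builds panTro6 and hg38. Which aligner was used, and how reads that map to several places were treated, is nowhere given in the sources used here, so counts near near-identical ZNF copies are uncertain. The authors also give each region's distance to its closest gene, from an annotation that is not stated. A distance of 0 was read as the gene's start, which was not checked against gene models. Regions at distance 0 had a median of 19.4 CPM, beside 1.52 CPM for regions farther away. A peak of every population overlapped 74.6% of the former and 12.7% of the latter. Deposited consensus peak lists, 1 per population, hold a display score, a fold enrichment ratio and −log10 q values; only overlap (1 bp or more) and −log10 q were used. Coordinates are panTro6, 1-based.

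Of 218080 rows, 6725 without a chimpanzee identifier and 7 repeats were left out. Counts of the remaining 211348 regions, and sums per closest gene, were fitted whole with edgeR 4.0.16 (filterByExpr, TMM, robust quasi-likelihood F-test, population only, all 8 libraries); p-values were adjusted by Benjamini-Hochberg and called under 0.05. CPM are TMM-scaled. On simulated data for N against aRG (198227 regions), 0 of 67 regions changed 1.5-fold, 2 of 67 changed 2-fold and 39 of 66 changed 4-fold were called; for loci (40618), 8 of 67, 39 of 67 and 62 of 66. Alternatives were RLE, library totals, loess, TMM from start regions, DESeq2 1.42.0, no filter, 4 libraries only, a replicate block, each library left out, other locus definitions, cluster gaps and peak thresholds. The ZNF genes, gene lists and tests were chosen with earlier results of these data known. Named genes were a fixed list, the 5 largest rises and falls among called loci (3 comparisons) and regions (N against aRG) with no overlap between populations, and extremes of level and region number. No sequence is shown and protein and promoter features were not analysed here.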

Additional observations from a re-analysis of the deposited data

How the results depend on the processing

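The ZNF regions called in N against aRG numbered 92, and 148 with TMM from start regions and 211 with loess. Loess also gave 207 in N against bRG (102), 143 in N against bIP (61) and 199 for any difference (91). DESeq2 gave 39 in N against bIP. In N against aRG the share of ZNF regions called was below that of all regions in 15 of 16 other settings, all but loess. In N against bRG it was also below in 15 of 16. In N against bIP it was below in all 16, and for any difference in all 14. Calls at ZNF starts, recomputed for 3 comparisons after the data were seen, moved from 24 in N against aRG to 15 (DESeq2), 84 (TMM from starts), 37 (library totals) and 146 (loess). From 10 in bIP against aRG they moved to 3, with library totals to 2, with loess to 18 and with only the 4 libraries of the pair to 6. From 13 in N against bIP they moved to 2 (DESeq2), 7 (RLE), 7 (library totals), 93 (loess) and 6 (4 libraries). The share of ZNF starts called was below that of all starts in 17 of 17 settings in bIP against aRG. In N against aRG and in N against bIP it was below in 16 of 17. The cause of these moves was not tested.

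For loci, start regions alone gave 3 in bIP against bRG (7), 87 in N against aRG (45), 75 in N against bRG (47), 19 in N against bIP (12) and 62 for any difference (31), with fewer regions and a scaling from starts by construction. Library totals gave 20 for any difference. With only the 4 libraries of the pair there were 29 in N against aRG and 28 in N against bRG. For every pair but bRG against aRG, the share of ZNF loci called was below that of all loci in all 18 other settings. For any difference it was below in all 16.

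Same-numbered libraries deviated together with correlations of 0.12 to 0.31 over the 6 pairs of populations, but the labels do not say what a number shares. With the replicate block, called regions numbered 76 in bIP against aRG and 93 in N against bIP, and called starts 28, 38 and 37 in bIP against aRG, N against aRG and N against bIP. Called loci then numbered 15 in bIP against aRG, 15 in bIP against bRG and 78 in N against aRG. They numbered 82 in N against bRG, 36 in N against bIP and 63 for any difference. Each of these counts under the block was a smaller share than that of all regions, starts or loci. The same held for the counts with 1 library left out that follow, in which 1 population keeps a single library.

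Leaving out 1 library gave 17 to 48 loci in N against aRG, 6 to 18 in N against bIP, 16 to 53 in N against bRG, 2 to 8 in bIP against bRG and 13 to 33 for any difference. Regions ran from 38 to 67 in N against bIP, 61 to 103 in N against bRG and 31 to 54 in bIP against aRG. Starts ran from 16 to 47 in N against aRG (the highest without bIP library 2), 3 to 16 in N against bIP and 2 to 19 in bIP against aRG.

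Signs turned with start regions alone for ZNF112 (0.13, bIP against aRG), ZNF507 (-0.0054, N against bIP) and ZNF579 (0.17, N against aRG, and 0.0334, N against bIP), whose called changes lay elsewhere in the locus. The other log2 fold changes that turned belonged to loci not called. With start regions alone these were ZNF428 (0.11 and 0.0395), ZNF43 (0.20 and 0.23), in N and in bIP against aRG, ZNF765 (0.11, N against aRG) and ZNF865 (0.0363, bIP against aRG). TMM from starts gave ZNF428 0.0233 and 0.0118, ZNF765 0.0296 and ZNF865 0.00583, DESeq2 and RLE gave ZNF428 -0.0345 and -0.0346 in N against bIP, library totals gave ZNF787 -0.00159, and loess gave ZNF428 0.0771. Leaving out 1 library, N against bIP ran from -0.22 to 0.10 for ZNF274, -0.36 to 0.11 for ZNF296, -0.13 to 0.10 for ZNF428, -0.0808 to 0.15 for ZNF675, -0.042 to 0.17 for ZNF765, -0.0433 to 0.23 for ZNF787 and -0.0412 to 0.13 for ZNF91. N against aRG ran from -0.19 to 0.18 for ZNF428 and -0.13 to 0.11 for ZNF765, and bIP against aRG from -0.20 to 0.17 for ZNF428, -0.16 to 0.0365 for ZNF43, -0.19 to 0.0445 for ZNF765, -0.17 to 0.17 for ZNF787 and -0.0800 to 0.0131 for ZNF865. The 19 clusters became 26 with a gap of 250 kb and 15 with a gap of 1 Mb. The share of ZNF regions with a peak, 72.8% to 75.4% over the populations, was 71.5% to 73.5% when a peak had to cover 50% of the region. On simulated data, in which few regions changed, 2 of 67 regions changed 2-fold were called. In the real fit of N against aRG 69.0% of all regions were called, so recovery there may differ and was not measured. Among ZNF starts, 24 were called in N against aRG, while 1.10% changed over 2-fold. Of the regions changed 4-fold on simulated data, 39 of 66 were called. Between bRG and aRG, where no region was called, changes of 2-fold and larger ones could therefore have been missed.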
